A study of Mus musculus with 36 samples.

Results

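The comparison described here set cochleae of sham-operated mice taken at circadian time (CT) 08 against those taken at CT20, that is, 8 h and 20 h on a circadian scale whose hour 0 is the start of the subjective day. CT08 therefore lies in the subjective day, the rest phase of a mouse, and CT20 in the subjective night, its active phase. The 6 libraries, 3 per time, were chosen by their labels out of 36 libraries of the series. All 6 came from CBA/Sca mice, an inbred strain, aged 12 weeks, and both groups share the sham operation, in which the adrenal glands, the source of circulating corticosterone, were left in place. The labels name no drug and no genotype beyond the strain. The other 30 libraries are sham cochleae at 4 further times (CT04, CT12, CT16 and CT24) and cochleae of adrenalectomized (ADX) mice at the same 6 times. No label read here says whether a library holds 1 animal or pooled cochleae, so p-values reflect only how far these libraries differ, which may be technical.

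Nearly every mammalian cell carries a circadian clock. The activators CLOCK (or its relative NPAS2) and BMAL1, the product of Arntl, bind E-box sequences and switch on their own repressors of the PER and CRY families. A stabilising loop is formed by the nuclear receptors REV-ERB (Nr1d1, Nr1d2) and ROR (such as Rora and Rorb), which compete for ROR elements in genes such as Arntl and Nfil3, and a further output arm by DBP, TEF and HLF against NFIL3 at D-boxes. Chaperones, which fold other proteins, are controlled by heat shock factors in the cytosol and by the unfolded protein response in the endoplasmic reticulum (ER).

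Library totals lay between 18999408 and 22746907 counts at CT08 and between 25202592 and 27134948 at CT20, so depth moved with time without overlap. When all 36 libraries were thinned to the total of the shallowest, 1212 genes were called, against 1351 without thinning, and 1079 were called in both. All 23 cochlear markers examined were above 0 in each of the 6 libraries: 6 hair cell markers lay between 3.67 and 142 CPM (counts scaled to a common library total), 5 of the stria vascularis between 47.3 and 440 CPM, 5 of spiral ganglion neurons between 1.82 and 691 CPM, and 4 of the spiral ligament and otic matrix between 5.77 and 6220 CPM. Pituitary hormone transcripts were unevenly spread. Growth hormone (Gh) stood at 0.596, 86.0 and 496 CPM at CT08 and 5.53, 3.07 and 12.7 CPM at CT20, so CT08 replicates 2 and 3 stood above the rest. Prolactin (Prl) stood at 0.149, 12.8 and 68.4 CPM at CT08 and 0.514, 0.333 and 0.971 CPM at CT20, highest in the same 2 libraries. A fit without those 2 libraries, chosen after their values were seen, leaves 1 library at CT08, whose spread is then taken to be like that of the other groups, and called 942 genes, 582 of them among the 1351. Calls lost in it come with fewer samples as well as without those 2 libraries, and the part of pituitary RNA in the other results was not tested beyond it. The summed level of 15 skeletal muscle genes was 165, 138 and 143 CPM at CT08 and 120.0, 138 and 126 CPM at CT20.

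In edgeR's quasi-likelihood test over 22556 genes, 1351 (5.99%) differed between CT20 and CT08 at an adjusted p under 0.05, hereafter called. Of these, 669 (2.97% of genes tested) were higher at CT20 and 682 (3.02%) were higher at CT08. Most changes were small: the median absolute log2 fold change of called genes was 0.33, 320 changed by more than 1.5-fold, and 119 by more than 2-fold, 71 higher at CT20 and 48 higher at CT08. Over all genes tested the median log2 fold change was -0.0026, and for 4983 genes (22.1%) the CPM of the 3 CT08 libraries and the 3 CT20 libraries did not overlap. The count of calls moved with single libraries: it was 733 without CT08 replicate 1, 867 without CT20 replicate 2 and 614 without CT20 replicate 3. With the 6 libraries fitted alone 162 genes were called, 157 of them among the 1351. In what follows, a positive log2 fold change is higher at CT20. The plot of all tested genes by level and log2 fold change shows these sizes over the range of levels.

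**Figure D1:**
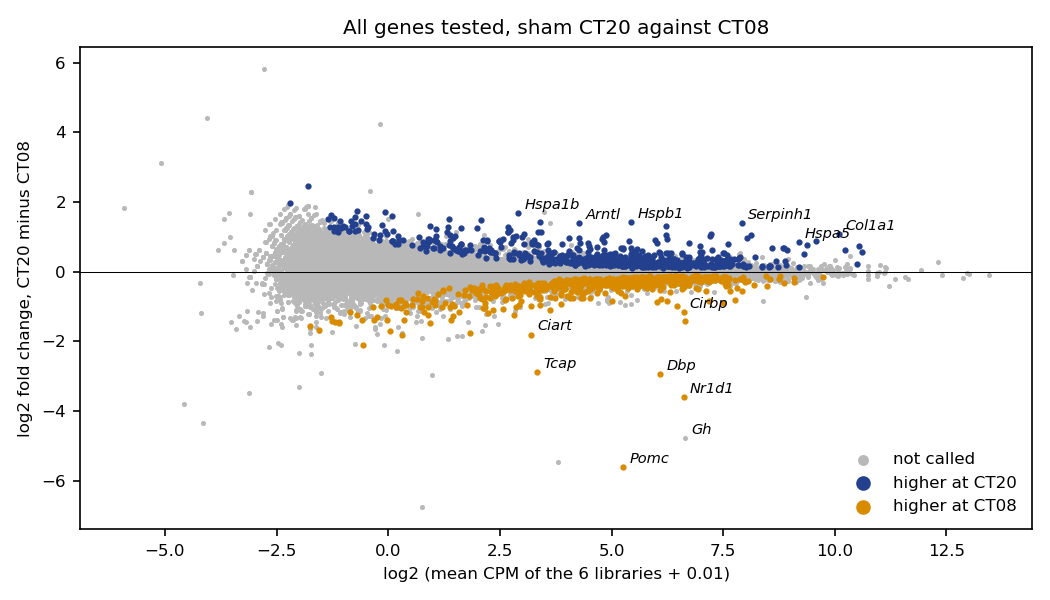
Log2 fold change of CT20 against CT08 in sham cochlea (vertical axis) against log2 of the mean CPM of the 6 libraries plus 0.01 (horizontal axis), 1 point per gene, with genes called higher at CT20, genes called higher at CT08 and genes not called in separate colours and 13 genes named. Most of the 1351 called genes lie within 1 log2 unit of 0, and Nr1d1 (-3.60) and Dbp (-2.93) lie far below it.

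Clock genes were among the largest differences. Of 19 clock genes from 5 lists, 15 were called, 5 higher at CT20 and 10 higher at CT08, against 5.99% of all genes tested. In 16 of the 19 the libraries of the 2 times did not overlap, against 22.1% of all genes tested. Leaving out any 1 of the 6 libraries left the numbers called in each of the 5 lists as they were.

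The activator arm was higher at CT20. Arntl (ENSMUSG00000055116; chr7:113207465-113314126, plus strand), which encodes BMAL1, stood at 10.6, 11.05 and 10.3 CPM at CT08 and 28.2, 30.1 and 25.7 CPM at CT20. Every CT20 library lay above every CT08 library (log2 fold change 1.39 ± 0.15 SE, adjusted p = 6.85e-07). Npas2, which encodes the CLOCK relative that pairs with BMAL1, stood at 6.46, 4.79 and 5.89 CPM at CT08 and 15.6, 16.4 and 13.8 CPM at CT20, again without overlap (log2 fold change 1.42 ± 0.24 SE, adjusted p = 3.90e-04). Clock itself moved least, standing at 51.5, 48.8 and 52.7 CPM at CT08 and 66.0, 74.8 and 64.5 CPM at CT20 (log2 fold change 0.42 ± 0.07 SE, adjusted p = 5.01e-04). All 3 activators listed were thus called, with a list median of 1.39.

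The REV-ERB receptors, repressors of Arntl, ran the other way. Nr1d1 (ENSMUSG00000020889; chr11:98767932-98775333, minus strand) stood at 195, 168 and 181 CPM at CT08 and 15.25, 13.7 and 15.9 CPM at CT20. It had the lowest log2 fold change among called genes of at least 1 CPM whose libraries did not overlap (log2 fold change -3.60 ± 0.24 SE, adjusted p = 1.11e-10). Nr1d2 stood at 158, 134 and 146 CPM at CT08 and 52.9, 56.6 and 54.1 CPM at CT20, all CT08 libraries above all CT20 libraries (log2 fold change -1.42 ± 0.15 SE, adjusted p = 2.24e-07). Among their competitors, the activating receptors, Rora (-0.13 ± 0.08, adjusted p = 0.332) and Rorb (-0.02 ± 0.18, adjusted p = 0.961) did not pass the test.

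The PER and CRY repressors divided between the times. Per3 stood at 128, 105 and 121 CPM at CT08 and 54.8, 61.0 and 63.2 CPM at CT20 (log2 fold change -0.98 ± 0.16 SE, adjusted p = 2.27e-04) and Per1 at 100.5, 86.3 and 75.5 CPM at CT08 and 45.1, 58.8 and 48.9 CPM at CT20 (log2 fold change -0.78 ± 0.15 SE, adjusted p = 0.00119), both higher at CT08 without overlap. Cry2 had a smaller difference in the same direction (log2 fold change -0.44 ± 0.07 SE, adjusted p = 3.66e-04). Cry1, the late-phase repressor of the family, was higher at CT20, at 12.0, 13.1 and 13.8 CPM at CT08 and 25.0, 25.6 and 25.6 CPM at CT20 (log2 fold change 0.97 ± 0.11 SE, adjusted p = 6.87e-07). Per2 did not pass the test: it stood at 56.9, 45.5 and 49.3 CPM at CT08 and 46.4, 45.9 and 50.2 CPM at CT20, with overlapping libraries (log2 fold change -0.09 ± 0.13 SE, adjusted p = 0.756). Across the 6 sham times the mean level of Per2 was 107 ± 6.88 CPM (SD, n = 3) at CT12 and 89.2 ± 5.35 CPM at CT16, but 50.5 ± 5.83 CPM at CT08 and 47.5 ± 2.31 CPM at CT20, so this pair of times falls on either side of its highest level.

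The output factors that act at D-boxes were led by Dbp, which stood at 128, 114 and 119 CPM at CT08 and 14.3, 15.9 and 17.3 CPM at CT20 (log2 fold change -2.93 ± 0.27 SE, adjusted p = 5.37e-08). Tef, of the same family, stood at 294, 261 and 275 CPM at CT08 and 145, 169 and 162 CPM at CT20 (log2 fold change -0.80 ± 0.12 SE, adjusted p = 4.78e-05). Both were higher at CT08 in every library. Hlf, the remaining family member, stood at 124, 96.7 and 103 CPM at CT08 and 85.8, 86.8 and 83.0 CPM at CT20 and did not pass the test (log2 fold change -0.34 ± 0.12 SE, adjusted p = 0.0757), although its libraries did not overlap. DESeq2 called it, and in the fit without the 2 CT08 libraries of high Gh its log2 fold change was -0.54 (adjusted p = 0.0448). Nfil3, the repressor that competes at the same sites, was higher at CT20, at 6.80, 6.98 and 6.26 CPM at CT08 and 13.1, 14.99 and 16.11 CPM at CT20 (log2 fold change 1.14 ± 0.13 SE, adjusted p = 2.02e-06).

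All 3 accessory repressors were higher at CT08. Ciart, which encodes CHRONO, a repressor of CLOCK and BMAL1, stood at 16.6, 11.9 and 14.3 CPM at CT08 and 4.58, 4.18 and 3.46 CPM at CT20 (log2 fold change -1.80 ± 0.17 SE, adjusted p = 1.09e-07). Bhlhe40, which encodes DEC1, a competitor at E-boxes, stood at 87.5, 80.6 and 83.7 CPM at CT08 and 44.5, 45.0 and 47.5 CPM at CT20 (log2 fold change -0.88 ± 0.09 SE, adjusted p = 4.60e-07). Bhlhe41, its DEC2 relative, changed less (log2 fold change -0.51 ± 0.11 SE, adjusted p = 0.00392). Several of these genes overlap another annotated gene on the opposite strand (Nr1d1 with Thra, Dbp with Sphk2, Ciart with C920021L13Rik), and Per3 overlaps Camta1, as Hsp90b1 overlaps Gm15344, on the same strand. No source used here gives the strand setting of the counting, so reads of such pairs cannot be told apart with certainty.

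**Figure D2:**
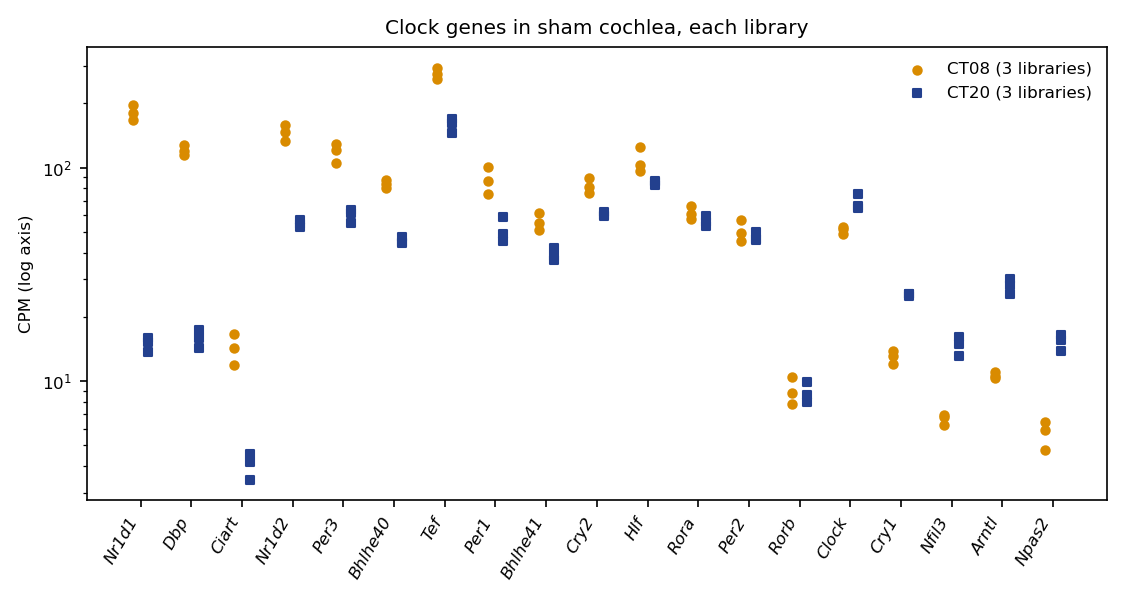
Level in CPM (logarithmic vertical axis) of the 19 clock genes, ordered by log2 fold change, in each of the 3 CT08 and 3 CT20 sham libraries, 1 point per library. Nr1d1, Dbp, Ciart and Nr1d2 lie higher at CT08, Arntl, Npas2, Nfil3 and Cry1 lie higher at CT20, and the points of Per2 overlap.

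Promoter sequences were read from RefSeq, build GRCm38.p6, as the 250 bases before and 50 bases after each gene start (32851 promoters of 27025 genes). Of the 669 genes higher at CT20, 482 had a promoter there, and of the 682 higher at CT08, 504. Motifs were searched on both strands: the E-box CACGTG, the D-box TTANGTAA, the ROR element TAGGTCA, the cAMP response element TGACGTCA, and the heat shock and ER stress elements given further on. The E-box was present in 7.15% of all promoters, 8.93% of those of tested genes, 9.06% (53 of 585) of those of genes higher at CT20 and 14.1% (89 of 629) of those of genes higher at CT08. The ROR element was present in 2.61% of all promoters, 2% of those of tested genes, 1.71% of those of genes higher at CT20 and 1.59% of those of genes higher at CT08. The D-box was present in 2.32% of all promoters, 1.67% of those of tested genes, 2.39% of those of genes higher at CT20 and 1.75% of those of genes higher at CT08. For the cAMP response element these shares were 1.79%, 2.63%, 2.22% and 2.7%. A match is a stretch of letters, not a shown binding site. The promoters of 3 genes are printed because they belong to called clock genes of opposite direction, with the motif in capitals and the rest in lower case, 5′ to 3′ on the gene's own strand. A motif on the opposite strand appears as its reverse complement. Ciart, higher at CT08, holds 3 E-boxes, starting 116, 58 and 44 bases before the gene start. Arntl and Nfil3, both higher at CT20, hold 1 ROR element each, in Nfil3 starting 12 bases before the start and in Arntl at base 31 after it. These 3 genes do not stand for all clock genes. Per1, Tef and Bhlhe41, higher at CT08, also hold an E-box, but so does Cry1, higher at CT20, starting 60 bases before the start. No E-box was found for Dbp, higher at CT08, or in the 5 promoters of the clock nuclear receptor list.
Ciart (chr3:95882179-95882478, minus strand): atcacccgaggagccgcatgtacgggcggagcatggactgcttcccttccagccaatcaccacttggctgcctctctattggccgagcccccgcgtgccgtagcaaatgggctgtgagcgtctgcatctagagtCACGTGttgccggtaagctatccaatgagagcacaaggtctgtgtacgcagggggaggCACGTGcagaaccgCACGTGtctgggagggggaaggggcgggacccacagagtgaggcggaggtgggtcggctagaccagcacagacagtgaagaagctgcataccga
Arntl (chr7:113207261-113207560, plus strand): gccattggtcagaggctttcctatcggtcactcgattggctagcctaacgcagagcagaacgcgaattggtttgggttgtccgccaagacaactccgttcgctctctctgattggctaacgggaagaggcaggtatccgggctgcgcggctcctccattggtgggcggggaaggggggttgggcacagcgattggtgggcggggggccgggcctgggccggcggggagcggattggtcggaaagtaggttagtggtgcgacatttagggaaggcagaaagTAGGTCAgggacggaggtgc
Nfil3 (chr13:52980990-52981289, minus strand): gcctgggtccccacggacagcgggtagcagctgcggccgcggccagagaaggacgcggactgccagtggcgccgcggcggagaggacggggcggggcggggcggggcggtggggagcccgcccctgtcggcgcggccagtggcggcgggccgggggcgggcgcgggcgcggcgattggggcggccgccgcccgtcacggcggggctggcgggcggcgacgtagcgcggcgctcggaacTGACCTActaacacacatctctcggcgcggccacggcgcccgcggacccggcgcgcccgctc

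Cytosolic chaperones were higher at CT20 almost throughout. Of 18 tested members of the heat shock and cytosolic chaperone list, 16 were called, all higher at CT20, against 2.97% of all genes in that direction. In all 18 the log2 fold change was positive and the libraries did not overlap, against 11.6% of all genes without overlap and higher at CT20. The list's median was 0.47 against -0.0026 over all genes. The count was 15 or 16 when any 1 of the 6 libraries was left out and 12 when the 6 libraries were fitted alone.

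The inducible small heat shock protein gene Hspb1 stood at 26.5, 20.8 and 23.2 CPM at CT08 and 50.1, 72.2 and 68.2 CPM at CT20 (log2 fold change 1.44 ± 0.14 SE, adjusted p = 1.64e-07). Hspa1b, an inducible HSP70 gene, stood at 3.73, 3.04 and 3.84 CPM at CT08 and 9.05, 8.44 and 16.7 CPM at CT20 (log2 fold change 1.69 ± 0.25 SE, adjusted p = 7.17e-05), with CT20 replicate 3 well above the other 2. Its near-identical neighbour Hspa1a stood at 4.47, 3.09 and 4.53 CPM at CT08 and 7.07, 5.41 and 9.39 CPM at CT20 (log2 fold change 0.86 ± 0.21 SE, adjusted p = 0.0142), and reads of the pair may have been divided between them, so neither value is certain on its own. Hsph1 (ENSMUSG00000029657; chr5:149614287-149636376, minus strand), which encodes the HSP110 exchange factor of HSP70, stood at 98.9, 89.1 and 102 CPM at CT08 and 181, 195 and 215 CPM at CT20 (log2 fold change 1.02 ± 0.11 SE, adjusted p = 6.87e-07). In each of these genes the lowest CT20 library lay above the highest CT08 library.

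The abundant HSP90 genes moved by less. Hsp90ab1, the constitutive form, stood at 1241, 1234 and 1308 CPM at CT08 and 1692, 1924 and 1958 CPM at CT20 (log2 fold change 0.56 ± 0.06 SE, adjusted p = 3.84e-07), and Hsp90aa1, the inducible form, at 374, 376 and 403 CPM at CT08 and 557, 597 and 634 CPM at CT20 (log2 fold change 0.63 ± 0.07 SE, adjusted p = 1.57e-06). Hspa8, the constitutive HSP70, stood at 494, 522 and 543 CPM at CT08 and 707, 748 and 767 CPM at CT20 (log2 fold change 0.51 ± 0.07 SE, adjusted p = 1.25e-05). Cryab, the small heat shock protein alpha-B crystallin, had the difference 0.43 ± 0.09 (adjusted p = 0.00256). Dnajb1, an HSP40 co-chaperone (0.28 ± 0.10, adjusted p = 0.0816), and Bag3, an HSP70 co-chaperone (0.19 ± 0.09, adjusted p = 0.216), were the 2 members that did not pass the test. The processed pseudogene Hsp25-ps1, also among the 12 largest rises (log2 fold change 1.32 ± 0.35 SE, adjusted p = 0.0237), resembles Hspb1 and may hold reads of it, and its call was lost without CT08 replicate 1, CT08 replicate 3, CT20 replicate 2 or CT20 replicate 3.

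Chaperones of the ER formed a further group of the same direction. Of 22 tested members of the ER folding and stress list, 15 were called and all 15 were higher at CT20, with a list median of 0.50. Of all genes tested, 2.97% were called in that direction. The same number, 15, was called when any 1 library was left out. Hspa5 (ENSMUSG00000026864; chr2:34771970-34777547, plus strand), which encodes BiP, the main ER chaperone, stood at 415, 428 and 407 CPM at CT08 and 684, 779 and 787 CPM at CT20 (log2 fold change 0.85 ± 0.07 SE, adjusted p = 8.91e-09). Hsp90b1, which encodes the ER form of HSP90, stood at 530.0, 548 and 548 CPM at CT08 and 887, 1038 and 1052 CPM at CT20 (log2 fold change 0.87 ± 0.08 SE, adjusted p = 4.74e-08). For both genes the 3 CT08 libraries lay close together, CT20 replicate 1 was the lowest of its group, and the times did not overlap.

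Calr, the lectin chaperone calreticulin, stood at 492, 505 and 482 CPM at CT08 and 756, 869 and 883 CPM at CT20 (log2 fold change 0.76 ± 0.06 SE, adjusted p = 8.91e-09), and Pdia6, a protein disulfide isomerase, at 147, 141 and 139 CPM at CT08 and 220.1, 267 and 263 CPM at CT20 (log2 fold change 0.81 ± 0.07 SE, adjusted p = 5.37e-08). Sdf2l1, a BiP partner, had the largest difference of the list, at 16.9, 21.1 and 18.9 CPM at CT08 and 34.6, 39.5 and 44.0 CPM at CT20 (log2 fold change 1.05 ± 0.11 SE, adjusted p = 1.98e-07). Derl3, a component of ER-associated degradation, stood at 4.77, 5.14 and 4.42 CPM at CT08 and 8.61, 10.7 and 9.71 CPM at CT20 (log2 fold change 1.02 ± 0.13 SE, adjusted p = 6.22e-06). Xbp1, the transcription factor of the unfolded protein response, had the difference 0.45 ± 0.06 (adjusted p = 4.76e-06). The stress factors of another branch gave no call: Atf4 stood at 0.09 ± 0.05 (adjusted p = 0.314), Ddit3, which encodes CHOP, at -0.03 ± 0.06 (adjusted p = 0.822) and Trib3 at -0.36 ± 0.15 (adjusted p = 0.147). Herpud1, an ER degradation factor, also stood near 0 (-0.08 ± 0.05, adjusted p = 0.427).

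**Figure D3:**
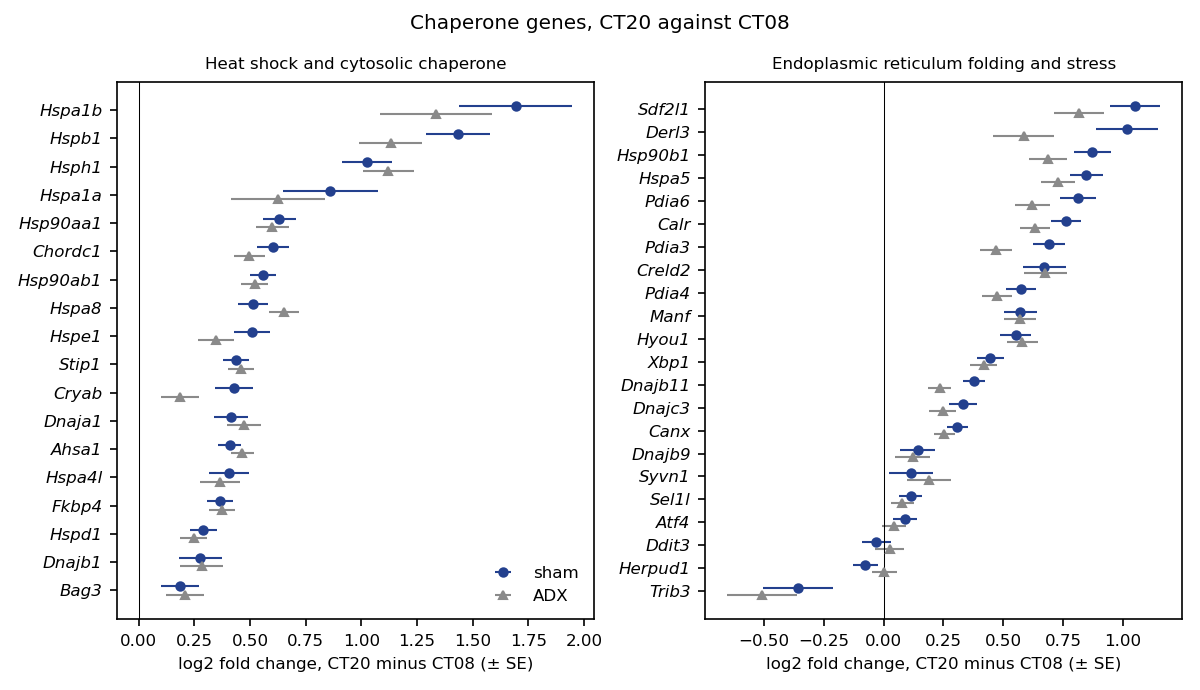
Log2 fold change of CT20 against CT08 with its standard error in sham cochlea for each tested member of the heat shock and ER folding lists, beside the value in ADX cochlea. All 18 heat shock genes and 19 of 22 ER genes lie above 0 in sham cochlea, and Atf4, Ddit3, Herpud1 and Trib3 lie between -0.36 and 0.09.

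The ER stress element, CCAAT and CCACG separated by 9 bases of any letter, was found in 39 of the 32851 promoters (0.119%). Among genes higher at CT20 it was found in 8 of 585 promoters (1.37%), which belong to Calr, Canx, Creld2, Derl3, Dnajc3, Hsp90b1, Hspa5 and Pdia6, and all 8 are in the ER list. Among genes higher at CT08 it was found in 1 of 629 (0.159%), that of Acacb. Of the 20 promoters of the ER list, 9 held it (45.0%), the remaining 1 being that of Syvn1, which was not called. The heat shock element, 3 repeats of the unit GAA in alternating orientation with 2 bases of any letter between them, was found in 0.603% of all promoters, 1.37% of those of genes higher at CT20, 0.636% of those of genes higher at CT08 and 5 of the 19 promoters of the heat shock list (26.3%), which belong to Chordc1, Hspd1, Hspe1 and Hsph1. Since both motifs mark known chaperone genes, these shares describe the lists and are no independent evidence about them. The promoters of 5 genes are printed because they carried the chaperone result, with each matched motif in capitals. The ER stress element starts 65 bases before the start in Hspa5, 98 in Pdia6, 162 in Calr, and 212 and 107 in Hsp90b1, and Calr also holds an E-box. Hsph1 holds an E-box 19 bases before the start printed here and a heat shock element at base 16 after it. For another listed start of Hsph1 (chr5:149636287-149636586) the same motifs lie at bases 3 and 37 after the start.
Hspa5 (chr2:34771840-34772139, plus strand): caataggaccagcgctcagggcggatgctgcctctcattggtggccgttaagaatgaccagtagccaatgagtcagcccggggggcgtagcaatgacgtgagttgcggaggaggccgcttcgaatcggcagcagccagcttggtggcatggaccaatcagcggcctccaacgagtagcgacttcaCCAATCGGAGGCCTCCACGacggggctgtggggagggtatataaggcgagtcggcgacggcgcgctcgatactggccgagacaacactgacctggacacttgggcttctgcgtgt
Hsp90b1 (chr10:86705395-86705694, minus strand): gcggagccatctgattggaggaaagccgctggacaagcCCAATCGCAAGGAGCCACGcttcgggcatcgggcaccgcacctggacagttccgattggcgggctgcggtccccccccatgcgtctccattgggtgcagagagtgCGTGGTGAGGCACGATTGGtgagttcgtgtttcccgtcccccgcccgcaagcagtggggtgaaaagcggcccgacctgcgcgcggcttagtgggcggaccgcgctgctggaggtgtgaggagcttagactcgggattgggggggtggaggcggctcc
Calr (chr8:84846882-84847181, minus strand): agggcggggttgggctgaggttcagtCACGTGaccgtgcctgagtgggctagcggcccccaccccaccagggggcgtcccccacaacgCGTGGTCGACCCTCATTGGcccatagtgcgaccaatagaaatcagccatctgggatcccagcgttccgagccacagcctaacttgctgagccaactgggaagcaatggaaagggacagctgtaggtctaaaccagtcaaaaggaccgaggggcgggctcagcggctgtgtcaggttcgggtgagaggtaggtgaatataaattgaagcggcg
Pdia6 (chr12:17266339-17266638, plus strand): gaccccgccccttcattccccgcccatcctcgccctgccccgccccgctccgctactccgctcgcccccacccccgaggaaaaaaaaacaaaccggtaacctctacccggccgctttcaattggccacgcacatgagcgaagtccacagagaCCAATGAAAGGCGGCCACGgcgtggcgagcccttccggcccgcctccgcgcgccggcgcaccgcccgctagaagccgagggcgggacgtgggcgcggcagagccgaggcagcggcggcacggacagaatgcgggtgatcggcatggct
Hsph1 (chr5:149636266-149636565, minus strand): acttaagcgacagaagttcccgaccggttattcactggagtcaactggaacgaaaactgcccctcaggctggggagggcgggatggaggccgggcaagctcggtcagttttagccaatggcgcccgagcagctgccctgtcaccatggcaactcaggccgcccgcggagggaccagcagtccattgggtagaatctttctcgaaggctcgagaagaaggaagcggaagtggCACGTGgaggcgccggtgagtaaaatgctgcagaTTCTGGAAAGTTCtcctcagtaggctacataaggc

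Called genes of collagen maturation in the ER were also higher at CT20, with 1 exception. Serpinh1 (ENSMUSG00000070436; chr7:99345376-99353239, minus strand), which encodes the collagen chaperone HSP47, stood at 132, 128 and 139 CPM at CT08 and 249.5, 406 and 402 CPM at CT20 (log2 fold change 1.41 ± 0.14 SE, adjusted p = 1.98e-07). All CT20 libraries were above all CT08 libraries, with CT20 replicate 1 the lowest of its group. In a list of 15 collagen-modifying genes added after values were seen, 8 were called higher at CT20 and 1 higher at CT08, against 2.97% and 3.02% of all genes tested. Serpinh1 is 1 of the 8, the remaining members of the list did not pass the test, and its median was 0.19. P4ha1, a prolyl 4-hydroxylase subunit, stood at 46.6 ± 2.67 CPM (SD, n = 3) at CT08 and 82.8 ± 6.999 CPM at CT20 (log2 fold change 0.83 ± 0.09 SE, adjusted p = 6.47e-07). P4ha3, another subunit of that enzyme, was the exception, at 17.2 ± 2.81 CPM and 13.3 ± 1.17 CPM (log2 fold change -0.37 ± 0.10 SE, adjusted p = 0.0281). Of 12 oligosaccharyltransferase genes, which add glycans in the ER and were likewise added later, 4 were called, all higher at CT20 (Rpn1, Magt1, Stt3b and Ostc), while of 14 ER translocation genes 1 was (Spcs2), against 2.97% of all genes in that direction.

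Both cold-inducible RNA-binding protein genes ran opposite to the heat shock genes. Cirbp (ENSMUSG00000045193; chr10:80165985-80172786, plus strand) stood at 153, 131 and 122 CPM at CT08 and 67.8, 61.1 and 53.0 CPM at CT20 (log2 fold change -1.16 ± 0.12 SE, adjusted p = 1.64e-07). Rbm3, its relative, stood at 158, 221 and 175 CPM at CT08 and 104, 92.5 and 114 CPM at CT20 (log2 fold change -0.84 ± 0.11 SE, adjusted p = 6.60e-06). Neither overlapped between the times, and both stayed called without any 1 of the 6 libraries.

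Over the 6 sham times these genes followed different courses. Hspa5 had means of 478 ± 33.3, 417 ± 10.7, 442 ± 22.6, 925 ± 68.5, 750.0 ± 57.1 and 468 ± 13.2 CPM (SD, n = 3) from CT04 to CT24, highest at CT16. Hsph1 was also highest at CT16, at 267 ± 14.7 CPM, against 197 ± 17.1 CPM at CT20. Cirbp was lowest at CT16, at 55.2 ± 5.35 CPM, with 60.6 ± 7.45 CPM at CT20. Arntl was highest at CT24 (31.2 ± 2.47 CPM), with 28.0 ± 2.19 CPM at CT20, and lowest at CT12 (7.66 ± 0.486 CPM), whereas Nr1d1 was highest at CT08 (181 ± 13.8 CPM) and lowest at CT20 (14.9 ± 1.16 CPM). By these means CT08 and CT20 hold both extremes of Nr1d1, and CT08 alone holds the lowest value of Hspa5 and Hsph1 and the highest of Cirbp. Of the other 12 h pairs of sham cochlea, CT16 against CT04 had 1190 called genes (5.28%), 576 higher at CT16 (2.55%) and 614 higher at CT04 (2.72%), and CT24 against CT12 had 1327 (5.88%), 399 higher at CT24 (1.77%) and 928 higher at CT12 (4.11%).

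**Figure D4:**
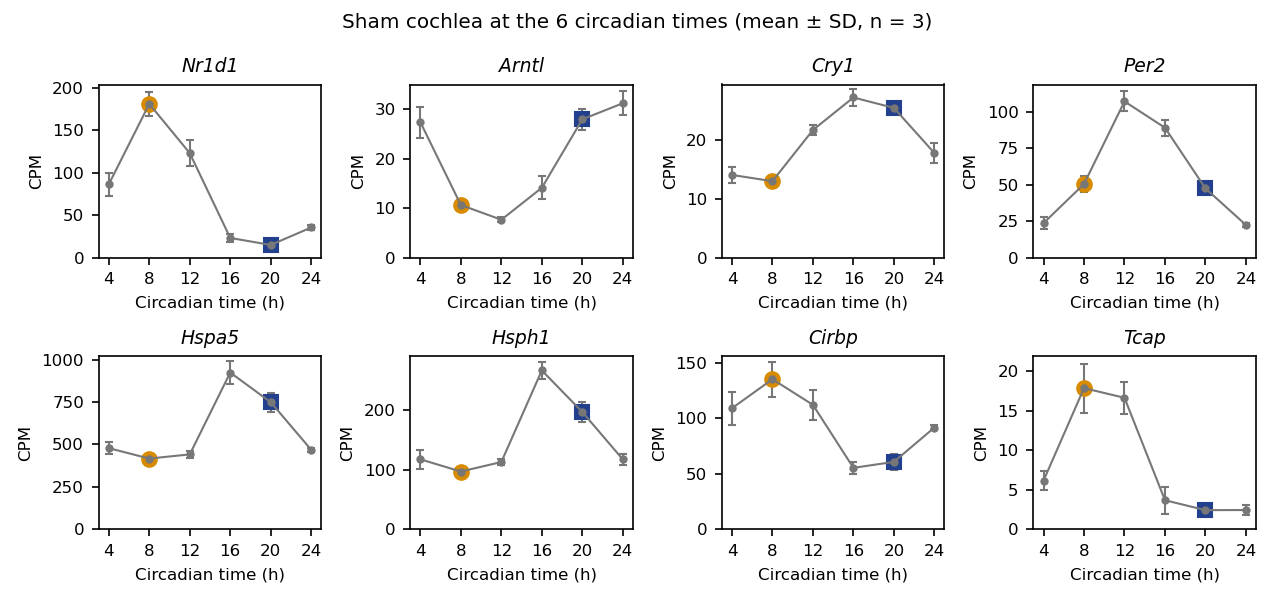
Mean level in CPM with its SD (n = 3 libraries) of 8 genes at the 6 circadian times of sham cochlea, with CT08 and CT20 marked. Nr1d1 is highest at CT08 and lowest at CT20, whereas Per2 stands at 50.5 and 47.5 CPM at these times and has its highest mean at CT12.

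Beyond clock and chaperone genes, the largest fall at CT20 under the same criterion was that of Tcap (ENSMUSG00000007877; chr11:98383811-98384953, plus strand), which encodes the titin cap protein telethonin. It stood at 21.3, 15.16 and 17.2 CPM at CT08 and 2.21, 2.78 and 2.21 CPM at CT20 (log2 fold change -2.89 ± 0.46 SE, adjusted p = 1.86e-04). The muscle transcripts Acta1 and Ckm were at or below 1.13 CPM in all 6 libraries. The list of 15 skeletal muscle genes had a median of -0.24, with 11 below 0, 4 above and 0 called. Its summed level was higher at CT08 without overlap, at 138 to 165 CPM against 120 to 138 CPM at CT20. The part of muscle RNA in the value of Tcap was not tested. Atp1a4, a sodium pump subunit, stood at 6.11, 5.50 and 4.74 CPM at CT08 and 1.58, 1.30 and 1.94 CPM at CT20 (log2 fold change -1.76 ± 0.19 SE, adjusted p = 4.23e-07). Klhdc9 stood at 2.53, 2.82 and 2.47 CPM at CT08 and 1.30, 1.15 and 0.854 CPM at CT20 (log2 fold change -1.24 ± 0.21 SE, adjusted p = 2.81e-04). These 3 genes did not overlap between the times and stayed called without any 1 library. The cilium-related gene Gas2l2, at 1.89, 1.03 and 1.79 CPM at CT08 and 0.514, 0.370 and 0.543 CPM at CT20 (log2 fold change -1.70 ± 0.34 SE, adjusted p = 0.00256), Tctex1d4, of a dynein light chain family (-1.39 ± 0.30, adjusted p = 0.00498), Wdr27 (-1.40 ± 0.29, adjusted p = 0.00358) and Gm12695 (-1.48 ± 0.32, adjusted p = 0.00572) were low in level. The last 2 lost their call without CT08 replicate 1.

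Beside these, 6 motile cilia genes had -0.44 as their median log2 fold change with 5 of 6 below 0. None was called by edgeR, 2 had an unadjusted p under 0.05, and DESeq2 called 1. Their summed level was 133, 77.6 and 114 CPM at CT08 and 92.5, 62.3 and 84.7 CPM at CT20, highest in CT08 replicate 1, and its part in the values of Gas2l2 and Gm12695 was not tested.

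Among rises outside the clock and chaperones, the histone H4 gene Hist2h4 stood at 2.23, 1.66 and 2.79 CPM at CT08 and 6.40, 6.55 and 5.71 CPM at CT20 (log2 fold change 1.49 ± 0.20 SE, adjusted p = 1.65e-05), and the processed transcript Gm20627 at 1.54, 1.12 and 1.68 CPM at CT08 and 3.67, 3.48 and 3.49 CPM at CT20 (log2 fold change 1.30 ± 0.21 SE, adjusted p = 1.74e-04). 4931408C20Rik had the difference 1.26 ± 0.25 (adjusted p = 0.00201), and 1.04 (adjusted p = 0.112) in the fit without the 2 CT08 libraries of high Gh. Npy1r, a neuropeptide Y receptor, stood at 3.13, 1.39 and 2.53 CPM at CT08 and 8.18, 3.78 and 4.89 CPM at CT20 (log2 fold change 1.26 ± 0.35 SE, adjusted p = 0.0271), a call lost without CT08 replicate 2, CT08 replicate 3, CT20 replicate 1 or CT20 replicate 3. Gpr17, a G protein-coupled receptor, stood at 1.54, 1.39 and 1.05 CPM at CT08 and 3.04, 3.15 and 5.24 CPM at CT20 (log2 fold change 1.51 ± 0.39 SE, adjusted p = 0.0172), lost without CT08 replicate 3 or CT20 replicate 3. The pseudogene Gm12941 (1.59 ± 0.39, adjusted p = 0.0122) lost its call without CT08 replicate 1, CT08 replicate 2 or CT20 replicate 3.

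Called matrix and bone genes were all higher at CT20, but many of the calls were lost without 1 library. Of 19 collagen chain genes, 7 were called, all higher at CT20, with a median of 0.32, against 2.97% of all genes in that direction. Col1a1 (ENSMUSG00000001506; chr11:94936224-94953042, plus strand), a chain of type I collagen, stood at 506, 810.4 and 792 CPM at CT08 and 984, 1866 and 1606 CPM at CT20 (log2 fold change 1.08 ± 0.25 SE, adjusted p = 0.0088). CT20 replicate 1 lay close to the CT08 range and replicates 2 and 3 far above it, and the call was lost without CT08 replicate 1 or CT20 replicate 2. Col5a1, a chain of type V collagen, stood at 72.0, 86.3 and 77.3 CPM at CT08 and 96.2, 121 and 121 CPM at CT20 (log2 fold change 0.52 ± 0.10 SE, adjusted p = 0.00101) and kept its call without each single library, though not with the 6 libraries alone. The list's count was 2 without CT08 replicate 1, 2 without CT20 replicate 2, 3 without CT20 replicate 3 and 1 with the 6 libraries alone. In whole cochlea, fewer cells of a type and less RNA per cell cannot be told apart.

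Of 21 elastic fibre and matrix genes, 4 were called, all higher at CT20 (Sparc, Thbs4, Lox and Fbn2), against 2.97% of all genes in that direction. The count was 1 without CT20 replicate 2. Thbs4, a matricellular thrombospondin, stood at 22.2, 17.6 and 16.7 CPM at CT08 and 23.5, 41.6 and 43.8 CPM at CT20 (log2 fold change 0.95 ± 0.20 SE, adjusted p = 0.00366) and kept its call without each single library. The call was lost with the 6 libraries alone and without the 2 CT08 libraries of high Gh, where its log2 fold change was 0.71 (adjusted p = 0.163). Sparc, a collagen-binding matrix protein, stood at 899, 951 and 977 CPM at CT08 and 1046, 1802 and 1478 CPM at CT20 (log2 fold change 0.61 ± 0.13 SE, adjusted p = 0.0042), and Lox, which crosslinks collagen, at 62.6, 69.2 and 66.1 CPM at CT08 and 71.6, 115 and 100.1 CPM at CT20 (log2 fold change 0.53 ± 0.12 SE, adjusted p = 0.00471). Sparc and Lox lost their calls without CT20 replicate 2, and Fbn2 (0.81 ± 0.20, adjusted p = 0.0142) without that library, CT08 replicate 1 or CT20 replicate 3.

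Of 13 osteoblast and osteocyte genes 6 were called, all higher at CT20, with a median of 0.44, against 2.97% of all genes in that direction. None was called by edgeR without CT08 replicate 1, CT08 replicate 3, CT20 replicate 2 or CT20 replicate 3, 4 were without CT08 replicate 2, and 9 without CT20 replicate 1. Bglap, which encodes osteocalcin, stood at 74.8, 116 and 98.4 CPM at CT08 and 101, 266 and 248 CPM at CT20, so CT20 replicate 1 lay within the CT08 range (log2 fold change 1.09 ± 0.28 SE, adjusted p = 0.0194), and reads may be shared with its near copy Bglap2. Of 10 osteoclast genes 2 were called, Ctsk (1.06 ± 0.29, adjusted p = 0.0251), the bone-resorbing cathepsin K, and Acp5 (0.74 ± 0.22, adjusted p = 0.0467), its acid phosphatase partner, both higher at CT20, against the same 2.97%. Both calls were lost without CT08 replicate 1, CT08 replicate 3, CT20 replicate 2 or CT20 replicate 3. The summed osteoblast level was 3630, 3350 and 3450 CPM at CT08 and 3520, 4990 and 4280 CPM at CT20. The cochlea lies in the otic capsule bone, and the share of bone in each library was not tested.

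**Figure D5:**
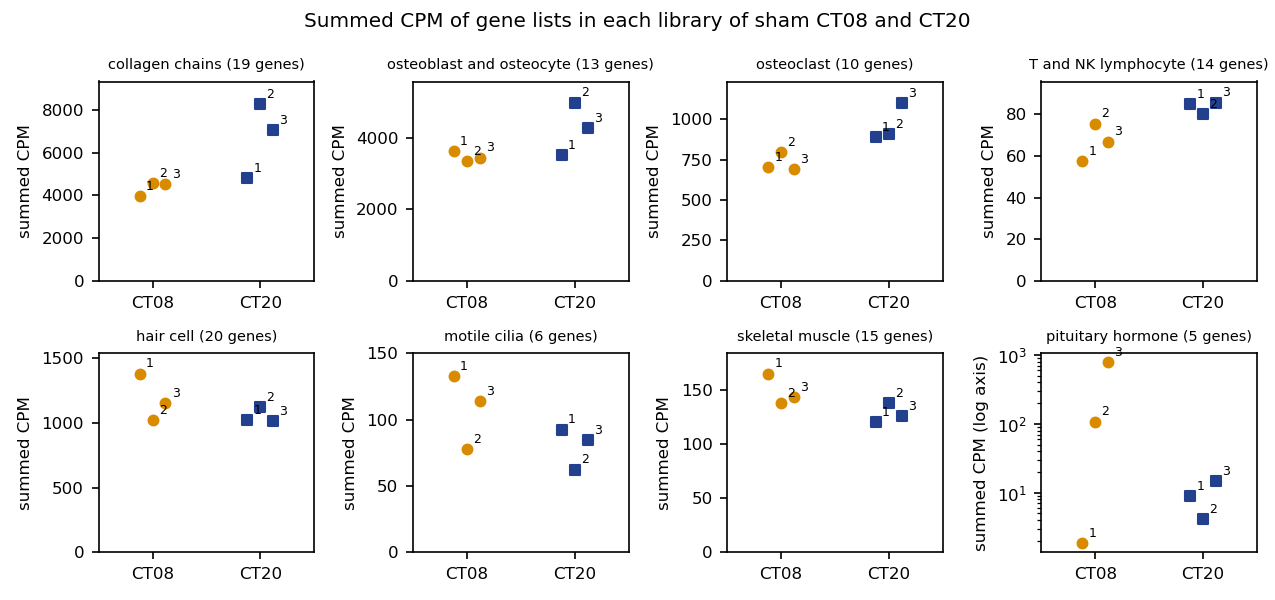
Summed CPM of gene lists (vertical axes) in each of the 3 CT08 and 3 CT20 sham libraries, 1 point per library, numbered by replicate, and 1 panel per list, the pituitary panel on a logarithmic axis. In the collagen and osteoblast panels CT20 replicates 2 and 3 lie above CT20 replicate 1, which in the osteoblast panel lies within the CT08 range, and in the pituitary panel CT08 replicates 2 and 3 lie above the other libraries.

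Genes known to be induced by glucocorticoids, the adrenal steroids that sham mice retain, were examined next. Of 22 tested, 2 were called, both higher at CT20, with a median of 0.04, against 5.99% of all genes called and 2.97% in that direction. The count was 1 without CT08 replicate 1 or CT20 replicate 3, 3 without CT08 replicate 2 and 4 without CT20 replicate 1. The list's summed level was 1280 to 1380 CPM at CT08 and 1290 to 1530 CPM at CT20. Its highest value in the 36 libraries, 2100 CPM, was in a sham library of CT12, a time outside this pair. Cdkn1a, the cell cycle inhibitor p21, stood at 67.6, 61.5 and 59.7 CPM at CT08 and 83.5, 103 and 88.5 CPM at CT20 (log2 fold change 0.54 ± 0.08 SE, adjusted p = 3.12e-05). Cebpd, a transcription factor, stood at 8.74, 10.6 and 11.4 CPM at CT08 and 12.5, 15.4 and 17.1 CPM at CT20 (log2 fold change 0.55 ± 0.14 SE, adjusted p = 0.0138), a call lost without CT08 replicate 1 or CT20 replicate 3. Textbook targets of the receptor were not called: Fkbp5 stood at 43.3, 39.4 and 36.2 CPM at CT08 and 40.02, 38.2 and 42.0 CPM at CT20 (log2 fold change 0.02 ± 0.22 SE, adjusted p = 0.981), Tsc22d3, which encodes GILZ, at 0.22 ± 0.12 (adjusted p = 0.313), and Sgk1 at -0.16 ± 0.09 (adjusted p = 0.315). Of 14 immediate early genes, 1 was called higher at CT20 and 1 higher at CT08, against 2.97% and 3.02% of all genes. Fosl2 was higher at CT20, at 35.2, 36.1 and 40.5 CPM at CT08 and 51.3, 55.5 and 58.8 CPM at CT20 (log2 fold change 0.57 ± 0.10 SE, adjusted p = 8.33e-04), and Egr1 was higher at CT08, at 31.4, 33.6 and 39.6 CPM at CT08 and 24.26, 20.9 and 23.1 CPM at CT20 (log2 fold change -0.62 ± 0.14 SE, adjusted p = 0.00565). Without the 2 CT08 libraries of high Gh, Egr1 had -0.46 (adjusted p = 0.161).

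Among metabolic genes Por, the reductase that supplies electrons to cytochrome P450 enzymes, was higher at CT08, at 159, 134 and 138 CPM at CT08 and 108, 97.5 and 100.3 CPM at CT20 (log2 fold change -0.49 ± 0.06 SE, adjusted p = 1.93e-06). Hmox1, which encodes heme oxygenase 1, was higher at CT08 as well, at 177, 281 and 252 CPM at CT08 and 134, 104 and 142 CPM at CT20 (log2 fold change -0.91 ± 0.17 SE, adjusted p = 9.35e-04), and had -0.48 (adjusted p = 0.191) without the 2 CT08 libraries of high Gh, which hold its 2 highest values. Cyp2a5, at -1.27 ± 0.35 (adjusted p = 0.0261), lost its call without CT08 replicate 1, CT08 replicate 2, CT20 replicate 2 or CT20 replicate 3. Srebf1, which encodes the lipid synthesis regulator SREBP1, fell at CT20 by a small amount (log2 fold change -0.28 ± 0.07 SE, adjusted p = 0.00863), a call lost without CT08 replicate 1 or CT20 replicate 3. Of 74 oxidative phosphorylation genes 5 were called, all higher at CT08 (Atp5a1, Ndufv3, Ndufa9, Ndufv1 and Uqcrc1), with -0.19 for Ndufv3 and -0.15 for Atp5a1, against 5.99% of all genes called and 3.02% in that direction. With no filter on low counts and with the 6 libraries alone 0 were called, and with the 18 sham libraries 1 was, in the opposite direction. Their count was 0 without CT08 replicate 1 or CT20 replicate 3, and 1 without CT08 replicate 2 or CT20 replicate 1, where the latter call was in the opposite direction. It was 3 without CT08 replicate 3 and 2 without CT20 replicate 2. Of 77 cytosolic ribosomal protein genes 1 was called, Rpl3 (-0.20 ± 0.06, adjusted p = 0.037), and the list's median was -0.07. That call was lost without CT08 replicate 2, CT08 replicate 3, CT20 replicate 2 or CT20 replicate 3, and 2 members were called without CT08 replicate 1.

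In lists of the sensory and neural cells of the cochlea few genes or none were called. In 16 of the 40 lists no member was called by edgeR, among them those of hair cells, the tectorial membrane and spiral ligament, spiral ganglion neurons, neurotrophins and their receptors, and Schwann cells. These 16 lists, which also cover other cells such as skeletal muscle and erythroid cells, together hold 197 tested genes. Of these, 16 had an unadjusted p under 0.05, against 4706 of the 22556 genes tested, and 5.99% of all genes were called. The lists were picked for having no called member in this same test. A low share of small p-values follows from that choice and says nothing further about these genes. DESeq2 called 1 of their members and limma-voom 0. In edgeR, 1 Schwann cell gene was called without CT20 replicate 2, 1 interferon-stimulated gene without CT20 replicate 1, and 2 motile cilia genes without CT08 replicate 2. The 20 hair cell genes had a median of -0.07. Calb2, which encodes calretinin, stood at 599.6, 524 and 506 CPM at CT08 and 390.2, 505 and 460.5 CPM at CT20 (log2 fold change -0.26 ± 0.15 SE, adjusted p = 0.318), and Ocm, the outer hair cell protein oncomodulin, at 26.4, 23.6 and 26.4 CPM at CT08 and 25.4, 36.3 and 27.9 CPM at CT20 (log2 fold change 0.23 ± 0.14 SE, adjusted p = 0.369). The summed hair cell level was 1380, 1020 and 1150 CPM at CT08 and 1020, 1120 and 1010 CPM at CT20, highest in CT08 replicate 1. With CT08 resting on that library alone, its spread taken to be like that of the other groups, 4 hair cell genes were called, all higher at CT08.

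All 15 spiral ganglion neuron genes had a log2 fold change below 0, with a median of -0.24. For 3 of them the unadjusted p was under 0.05, and edgeR, DESeq2 and limma-voom called 0. Rbfox3, a neuronal RNA-binding protein, stood at 21.1, 17.8 and 16.16 CPM at CT08 and 13.7, 16.7 and 12.27 CPM at CT20 (log2 fold change -0.37 ± 0.15 SE, adjusted p = 0.138), and Ntrk2, the receptor of brain-derived neurotrophic factor, at 159.9, 132 and 144 CPM at CT08 and 129.9, 128 and 117 CPM at CT20 (log2 fold change -0.22 ± 0.10 SE, adjusted p = 0.192). The 8 neurotrophin and receptor genes had a median of -0.13, with 5 below 0 and 3 above. For 3 of the 8 the unadjusted p was under 0.05, and 0 were called. Ngfr, a neurotrophin receptor, had the smallest p of that list (log2 fold change -0.43, adjusted p = 0.118). Ntf3, which encodes neurotrophin 3, stood at 2.68, 2.01 and 2.05 CPM at CT08 and 4.27, 3.59 and 3.61 CPM at CT20 (log2 fold change 0.76 ± 0.30 SE, adjusted p = 0.126), without overlap and without passing the test. Against 5.99% of all genes called, 1 of 14 genes of the stria vascularis, the tissue that secretes endolymph, was called, Esrrb. It encodes an orphan nuclear receptor and stood at 115, 99.7 and 109 CPM at CT08 and 126, 146 and 141 CPM at CT20 (log2 fold change 0.36 ± 0.09 SE, adjusted p = 0.0222). Of 5 connexin genes 1 was called, against the same 5.99%. This was Gja1, which encodes connexin 43, at 83.2, 90.1 and 86.4 CPM at CT08 and 101, 119 and 127 CPM at CT20 (log2 fold change 0.42 ± 0.12 SE, adjusted p = 0.0345). The call of Esrrb was lost without CT08 replicate 2, CT08 replicate 3, CT20 replicate 2 or CT20 replicate 3, and that of Gja1 without any 1 library other than CT20 replicate 1.

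Of immune lists, the 14 T and NK lymphocyte genes all had positive values, with a median of 0.50 and 8 members without overlap, against 22.1% of all genes. Called were 3 of them, all higher at CT20, against 2.97% of all genes in that direction. The 3 were Cd3g, at 1.19, 1.43 and 1.21 CPM at CT08 and 2.29, 2.59 and 2.52 CPM at CT20 (log2 fold change 0.94 ± 0.24 SE, adjusted p = 0.0155), Cd8a (1.02 ± 0.29, adjusted p = 0.032) and Gzma (0.72 ± 0.21, adjusted p = 0.0377). They encode a subunit of the T cell receptor complex, a coreceptor and granzyme A. The list's count was 0 without CT08 replicate 1, CT08 replicate 3 or CT20 replicate 3, 1 without CT20 replicate 2, and 2 without CT08 replicate 2 or CT20 replicate 1. Its summed level was 57.5, 75.5 and 66.9 CPM at CT08 and 84.9, 80.0 and 85.6 CPM at CT20. B lymphocyte genes, by contrast, overlapped in all 13 members, with a median of 0.12 and a summed level of 1020, 2000 and 1800 CPM at CT08 and 1820, 1570 and 1810 CPM at CT20, lowest in CT08 replicate 1. With CT08 resting on that library alone, in the same fit, 4 of them were called. Nfkb2, a subunit of NF-kB, was the 1 inflammatory gene of 15 called (log2 fold change 0.31 ± 0.08 SE, adjusted p = 0.0237), against 5.99% of all genes. Its call was lost without CT08 replicate 1 or CT20 replicate 3.

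Of the pituitary genes Pomc, the precursor of adrenocorticotropin, was called, but it stood at 1.09, 6.75 and 216 CPM at CT08 and 2.85, 0.740 and 1.01 CPM at CT20, with CT08 replicate 3 far above the rest (log2 fold change -5.61 ± 1.53 SE, adjusted p = 0.0262). Its call was lost without CT08 replicate 3, and also without any of the 3 CT20 replicates. Without the 2 CT08 libraries of high Gh its log2 fold change was 0.48, and without CT08 replicate 1, where the low value is left out, 4 of the 7 pituitary genes tested in that fit were called. Other genes described above that lost their calls without the 2 CT08 libraries of high Gh, with their sign kept, included Npy1r, Gpr17, Hsp25-ps1, Cyp2a5, Fbn2, Bglap, Ctsk, Esrrb, Gja1, Cd3g, Cd8a, Gzma, Atp5a1 and Rpl3, the last with its log2 fold change at -0.095.

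The same times in adrenalectomized mice show which of these differences were measured without adrenal glands. CT20 against CT08 in ADX cochlea called 947 genes (4.2%), 476 higher at CT20 (2.11%) and 471 higher at CT08 (2.09%). Of the 1351 genes called in sham cochlea, 485 were called in ADX cochlea too (35.9% of the sham calls and 51.2% of the ADX calls), and all 485 in the same direction. The ADX log2 fold change had the sign of the sham value for 1271 of the 1351 (94.1%), against 68.4% of all genes tested. It was smaller in size than the sham value for 1134 of the sham calls (83.9%), and the sham value was smaller than the ADX value for 678 of the 947 ADX calls (71.6%).

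Of the 19 clock genes 10 were called in ADX cochlea and 15 in sham cochlea, against 4.2% and 5.99% of all genes. Each of the 15 called in sham cochlea had the larger absolute log2 fold change in sham cochlea. Choosing genes by their sham call favours a larger sham value, which 83.9% of all sham calls had. Nr1d1 had -3.60 in sham and -2.35 in ADX cochlea, and Dbp had -2.93 and -1.90. Arntl had 1.39 and 0.79. Npas2 had 1.42 and 0.44 (ADX adjusted p = 0.322), and Per3 -0.98 and -0.38 (ADX adjusted p = 0.182). None of these differences between sham and ADX was called: edgeR's test of the difference gave 0 genes of 22556, with 1328 at an unadjusted p under 0.05 and a smallest adjusted p of 0.377. Of the 19 clock genes 11 had an unadjusted p under 0.05 for the difference, with 0.651 the smallest adjusted p. DESeq2 called 4 genes for the difference, none of them a clock gene.

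Chaperone genes were called in both kinds of cochlea. Of the heat shock list 14 of 18 were called in ADX cochlea, all higher at CT20, against 2.11% of all genes in that direction. The list's median was 0.47 beside 0.47 in sham cochlea. Of the ER list 15 were called higher at CT20 and 1, Trib3, higher at CT08, against 2.11% and 2.09% of all genes. Its median was 0.44 beside 0.50. Hsph1 had 1.02 in sham and 1.12 in ADX cochlea, Hspa5 0.85 and 0.73, and Cirbp -1.16 and -1.13. For 3 of the 40 heat shock and ER genes the difference between sham and ADX had an unadjusted p under 0.05, with 0.759 the smallest adjusted p.

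Bone and matrix lists had lower medians in ADX cochlea, a difference that was not tested for the lists. Of the 19 collagen chains 1 was called in ADX cochlea, against 4.2% of all genes (median 0.12 beside 0.32 in sham cochlea). The osteoblast list had a median of 0.08 beside 0.44, and the osteoclast list -0.00011 beside 0.67. Col1a1 had 1.08 in sham and 0.41 in ADX cochlea, with an unadjusted p of 0.0656 for the difference. Tcap had -2.89 and -0.99, with an unadjusted p of 0.00454. Skeletal muscle genes had a median of 2.50 in ADX cochlea against -0.24 in sham cochlea, and a fit without the 3 ADX libraries of highest muscle level called 1359 genes in sham cochlea. In ADX cochlea that fit called 1318 genes against 947, of which 801 were shared.

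Among genes of at least 1 CPM, the smallest p-values for the difference belonged to genes of low level. Gas2l2 had -1.70 in sham and 0.61 in ADX cochlea (unadjusted p = 1.67e-05), Cdh26, a cadherin, -0.81 and 0.94, and Gm12695 -1.48 and 0.57. The rule also named Mirt2 (0.50 and -0.60), Cd300ld (0.60 and -0.22) and Nek5, a kinase gene (-1.02 and 0.48). DESeq2 called Gas2l2, Cdh26, Gm12695 and Prr32 at adjusted p-values of 0.0169, 0.026, 0.0356 and 4.82e-07. Prr32 had 0 to 4 reads in each of the 12 libraries compared and is given no fold change. The motile cilia genes moved with these: their median was -0.44 in sham and 0.46 in ADX cochlea, and their part in these values was not tested.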

How the data were processed

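Cochlear RNA was measured by RNA-seq in 36 libraries, and 6 of them, 3 sham libraries each at CT08 and CT20, are described here. Per the labels, strand-preserving libraries of messenger RNA were read from 1 end on an Illumina instrument, 6 to a pool, and no source used here says which libraries shared a pool. The authors aligned reads with STAR 2.4.0i to mouse build mm10, per the submitters' processing notes, and the deposited table holds raw counts per Ensembl gene, not normalized, for 39017 genes. The sources used here do not give the counting program, annotation or strand setting. In 30 libraries the column name gives a time 1 h earlier than the labels, and the labels were followed. Symbols were matched through GENCODE M21 for 37693 gene IDs.

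The counts were tested with edgeR 4.0.16 (R 4.3.3). Genes passing filterByExpr were kept (22556; the other 16461 held 0.0779% of counts), libraries were scaled by TMM, and the quasi-likelihood test was fitted to 12 group means over all 36 libraries (24 residual degrees of freedom). P-values were adjusted by Benjamini-Hochberg over all kept genes at 0.05. CPM are TMM-scaled. Alternatives used DESeq2 1.42.0, limma 3.58.1, other scaling and filters, and left out libraries. Scripts were tested on simulated data. Named genes were the 12 largest called changes in each direction (mean of at least 1 CPM, no overlap between groups), all clock genes (1 is not reported here), up to 4 called genes by p of each other list (2 where none was called), the 6 smallest p-values for the difference between sham and ADX, and Gh, Prl, Acta1 and Ckm. Other genes named were chosen after their values were seen. Members and lists were chosen with earlier results of these data known. The lists not described in the text, of sterol synthesis, adipocytes, fatty acid synthesis, NRF2, neutrophils, erythroid cells, interferon response, cell cycle, melanocytes and mucosa, gave Srebf1 and Hmox1 as their only calls.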

Additional observations from a re-analysis of the deposited data

How the results depend on the processing

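The number of genes called between CT20 and CT08 in sham cochlea was 1351. It was 1352 with DESeq2's size factors, 1648 with DESeq2, 1259 with limma-voom, 903 with the 18 sham libraries alone, 886 with no filter on low counts (530 higher at CT20 and 356 at CT08), 162 with the 6 libraries alone (105 and 57), and 614 to 1149 when 1 of the 6 libraries was left out. Replicate numbers did not pair the libraries: same-numbered CT08 and CT20 libraries deviated together with correlations of -0.03, -0.22 and 0.01. A replicate block gave 1294 calls. With no filter the ADX comparison gave 553 calls, CT16 against CT04 783, and CT24 against CT12 855. With a replicate block these were 911, 1121 and 1280. The difference between sham and ADX gave 4 calls with DESeq2 and 0 in the other fits. Without the 2 CT08 libraries of high Gh, 942 genes were called (404 and 538), and Pomc changed sign to 0.48. Depth limits genes of a few reads, and 3 libraries per time limit all.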
